A study of Mus musculus with 24 samples.

Results

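Late 2-cell mouse embryos given guides against Zfp622 were compared with wild-type embryos of the same stage, gene by gene. The 8 libraries, 4 Zfp622 knockout and 4 wild-type, were chosen by their titles from the 24 of the series. For the knockouts, zygotes of B6D2F1 parents, with donor females 3 to 4 weeks old, received Cas9 protein at 100 ng/µL and 3 guide RNAs at 50 ng/µL each into the cytoplasm, per the series' design text. Each library holds polyadenylated RNA from a pool of 10 embryos, so that edited and unedited embryos of a pool are averaged, and the share of edited alleles per pool is not given in the sources used here. The Zfp622 knockout group is the late 2-cell stage (L2C) after the 3 Zfp622 guides. A second knockout group of 4 libraries, L2C after 3 guides against Ttf1, shares the wild-type controls. Its libraries entered the fit of the 12 L2C libraries, so that they also set the spread behind every p-value of that fit, and its own values are given beside some results. The wild-type group is L2C without a named guide, also from donor females 3 to 4 weeks old. Its titles carry the unexplained letters NC, and the labels do not say whether these zygotes were injected. Strain labels count upward from B6D2F1 over the 24 libraries, so the labels do not settle the strain of the wild-type embryos. In bulk RNA from pools, fewer cells with a transcript and less transcript per cell cannot be told apart.

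Zfp622 encodes a cytoplasmic zinc finger protein. Its yeast relative Rei1 acts on the precursor of the large (60S) ribosomal subunit after export from the nucleus, where the export factor Arx1 and other assembly factors are released before the subunit can translate. Late 2-cell mouse embryos have just begun strong transcription of their own genome, with a burst of short-lived transcripts such as the Zscan4 and Tdpoz genes, while transcripts stored in the oocyte are being removed.

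Levels are CPM, counts scaled to 1e6 per library after scaling of each library by TMM (trimmed mean of M values), with the SD over 4 libraries. Tests are edgeR's quasi-likelihood test on counts with Benjamini-Hochberg adjustment over all genes tested, and a gene is called at an adjusted p of at most 0.05. Where no other fit is named, edgeR stands for the fit of the 12 L2C libraries with a filter on low counts. Total counts ran from 12135924 to 13528954 in Zfp622 knockout libraries and from 10538723 to 12686381 in wild-type libraries. Between 26530 and 26880 genes had a count in knockout libraries, against 25848 to 26704 in wild-type libraries. All 12 markers of the labelled tissue, among them Zscan4d, Zfp352, Ooep and Dppa3, were at 1 CPM or more in each of the 8 libraries. All 8 carry the same lane number, and wild-type library 4 also carries a second index number.

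Zfp622 RNA fell in the knockout and was still present in every pool. It stood at 63.7, 105.5, 52.5 and 73.9 CPM in Zfp622 knockout libraries, against 184, 199, 203 and 205 CPM in wild-type libraries. The highest knockout library, number 2, was well below the lowest wild-type library. The log2 fold change was -1.42 (SE 0.16, 95% interval -1.76 to -1.08, adjusted p = 0.00243 by edgeR), which leaves 0.374 times the wild-type level. Knockout libraries spread more widely than wild-type libraries, with SDs of 22.8 CPM in the knockout and 9.46 CPM in wild type. Without knockout library 2 the log2 fold change was -1.64, and without knockout library 3 it was -1.28. In Ttf1 knockout libraries Zfp622 averaged 184 ± 21.7 CPM (SD, n = 4), and the difference between the knockouts was -1.32 on the log2 scale (edgeR adjusted p = 0.00595). Transcript that remains after Cas9 cutting can carry small insertions or deletions, and these counts do not show them.

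Beyond the target, 2 genes of 16770 tested passed. Zfp948, a gene for a KRAB zinc finger protein on chromosome 17, rose, and H1foo, the gene for the oocyte linker histone on chromosome 6, fell. In all, 3 genes were called, 0.0179% of those tested: 1 higher (0.00596%) and 2 lower (0.0119%), Zfp622 among the lower. DESeq2 on the same genes called 21, a fit with all 24 libraries called 6, the fit without knockout library 2 called 7, and edgeR without a filter on low counts called 88. At an unadjusted p under 0.05 there were 1079 genes (6.43%), 565 higher (3.37%) and 514 lower (3.06%). The 4 knockout and 4 wild-type libraries did not overlap in 538 genes (3.21%), 276 higher (1.65%) and 262 lower (1.56%).

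Zfp948 had 140, 132, 150 and 148 CPM in Zfp622 knockout libraries, against 84.2, 86.6, 88.2 and 93.8 CPM in wild-type libraries. The groups were far apart and each was tight, with SDs of 8.22 CPM in the knockout and 4.08 CPM in wild type. Its log2 fold change was 0.69 (SE 0.08, 95% interval 0.53 to 0.86, adjusted p = 0.000558 by edgeR). KRAB zinc finger proteins are a large, fast-evolving family, many of which bind repeats and recruit silencing factors.

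H1foo had 38.1, 37.8, 32.7 and 44.2 CPM in Zfp622 knockout libraries, against 49.5, 66.0, 73.9 and 69.8 CPM in wild-type libraries. The highest knockout library lay just below the lowest wild-type library, number 1. The log2 fold change was -0.76 (SE 0.13, 95% interval -1.03 to -0.50, adjusted p = 0.0477 by edgeR). The H1foo protein takes the place of somatic linker histone in the oocyte and early zygote, and its transcript is maternal. Its call was lost in 10 of the 20 fits run, whereas Zfp622 and Zfp948 were called in each. With a library left out, the edgeR adjusted p of H1foo was 0.267, 0.0529 and 0.139 without knockout libraries 1, 2 and 3, and 0.22, 0.214 and 0.232 without wild-type libraries 2, 3 and 4. It was 0.0744 with no robust fit, 0.0832 with the replicate block, 0.223 in the 8 libraries alone and 0.138 in all 24, and over these 10 fits the log2 fold change stayed between -0.76 and -0.69.

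**Figure D1:**
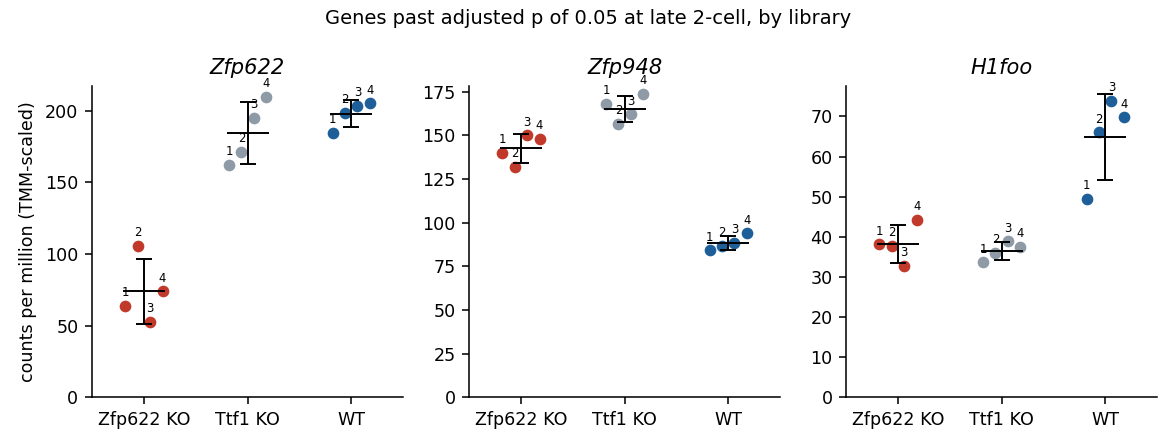
CPM (TMM-scaled) of Zfp622, Zfp948 and H1foo in each late 2-cell library of the Zfp622 knockout, the Ttf1 knockout and wild type; small numbers are library numbers, and bars are mean and SD of 4 libraries. Zfp622 is low in the Zfp622 knockout libraries (52.5 to 105.5), whereas Zfp948 and H1foo lie on the same side of wild type in both knockouts.

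Neither Zfp948 nor H1foo differed past the threshold between the knockouts. Zfp948 averaged 165 ± 7.54 CPM and H1foo 36.5 ± 2.23 CPM in Ttf1 knockout libraries (SD, n = 4). Against the same wild-type libraries their log2 fold changes there were 0.90 and -0.83 (edgeR adjusted p = 3.54e-06 and 0.00348). The Zfp622 minus Ttf1 difference was -0.21 for Zfp948 (95% interval -0.37 to -0.05, edgeR adjusted p = 0.487) and 0.07 for H1foo (95% interval -0.20 to 0.33, edgeR adjusted p = 0.95). Over all genes, 6 passed between the knockouts (0.0358%): Ttf1, Sp3os and Rps21 were higher in the Zfp622 knockout, and Zfp622, Gm10697 and Gm2423 were lower. Lane differs between the knockouts, so lane and genotype cannot be told apart there.

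The start regions of the 3 called genes are shown because their transcripts are the ones that passed. Each is the 150 bases before the RefSeq start on the plus strand of GRCm38.p6, and capitals mark the E-box letters CANNTG, which read the same on both strands.
Zfp622 (chr15:25984216-25984365): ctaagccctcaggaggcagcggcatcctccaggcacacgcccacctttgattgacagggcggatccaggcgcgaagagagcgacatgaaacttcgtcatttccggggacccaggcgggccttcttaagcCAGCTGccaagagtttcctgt
Zfp948 (chr17:21566828-21566977): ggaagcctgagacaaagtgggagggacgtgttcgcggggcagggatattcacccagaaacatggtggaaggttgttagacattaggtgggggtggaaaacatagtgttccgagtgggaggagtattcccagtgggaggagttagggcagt
H1foo (chr6:115944781-115944930, named H1f8 in RefSeq): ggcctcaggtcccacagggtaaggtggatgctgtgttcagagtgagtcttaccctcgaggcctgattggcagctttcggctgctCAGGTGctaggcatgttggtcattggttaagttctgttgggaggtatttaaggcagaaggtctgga
Zfp622 and H1foo hold 1 CANNTG each and Zfp948 holds 0, and 47.7% of 32851 windows of the same length hold at least 1. The Zfp622 window has 9 CpG, the Zfp948 window 4 and the H1foo window 2, against a median of 4 over all windows. In the files' annotation Zfp622 runs on chromosome 15 from 25984366 to 25998481, Zfp948 on chromosome 17 from 21567008 to 21588699, and H1foo on chromosome 6 from 115944938 to 115950236, all on the plus strand. The number of other annotated genes overlapping each was 0.

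The width of the 95% interval of each change depended on abundance. These intervals are per gene and not adjusted for the number of genes tested. A call at an adjusted p of at most 0.05 needed a larger change than the half-width. For 12506 of the 16770 genes the 95% interval of the change lay wholly within 2-fold either way, and for 7950 it lay within 1.5-fold. The median half-width of the interval was 1.14-fold for the 2303 genes above 100 CPM, 1.21-fold for the 4068 genes from 20 to 100 CPM and 1.34-fold for the 3936 genes from 5 to 20 CPM. It widened to 1.66-fold for the 5161 genes from 1 to 5 CPM and 2.15-fold for the 1302 genes under 1 CPM. Accordingly 99% of genes above 100 CPM had an interval within 2-fold, but 49.7% of genes from 1 to 5 CPM and 2.23% of genes under 1 CPM. For most genes under 5 CPM a change of 2-fold was therefore not excluded by these libraries.

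**Figure D2:**
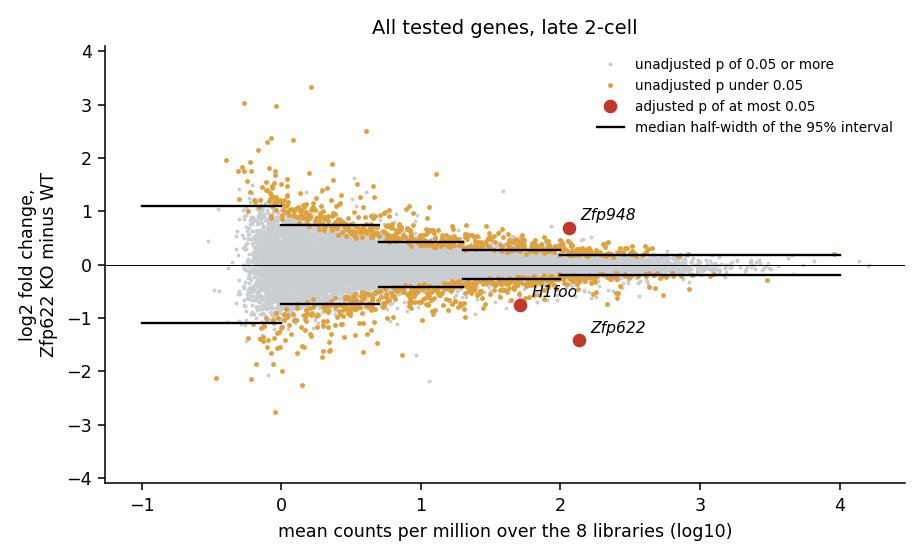
Log2 fold change (Zfp622 knockout minus wild type) of the 16770 tested genes against mean CPM over the 8 libraries (log10); black lines are the median half-width of the 95% interval in 5 ranges of abundance. The 3 called genes stand at 20 CPM or above, and the cloud widens below 5 CPM.

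Other factors that act late in 60S maturation stayed close to wild type in RNA. Of the 36 tested genes of this list, 1 was called, Zfp622 itself. At an unadjusted p under 0.05 there were 2 higher and 1 lower, beside 3.37% and 3.06% of all genes. The median log2 fold change of the 36 was 0.02, beside -0.002 over all genes. Intervals lay within 2-fold for 35 of the 36 and within 1.5-fold for 33. Pa2g4, the mammalian relative of Arx1, averaged 877 ± 45.4 CPM in Zfp622 knockout libraries and 849 ± 69.6 CPM in wild-type libraries (SD, n = 4; 95% interval of the log2 change -0.10 to 0.20). Nmd3, the adaptor for export of the 60S precursor, averaged 497 ± 20.1 CPM in the knockout and 459 ± 27.1 CPM in wild type. Its release needs the GTPase Lsg1, which averaged 205 ± 18.2 and 202 ± 4.25 CPM in knockout and wild-type libraries.

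Eif6, which keeps the subunits apart, averaged 595 ± 11 CPM in the Zfp622 knockout and 597 ± 42.0 CPM in wild type (95% interval of the log2 change -0.15 to 0.14). Eif6 is removed by Sbds and the GTPase Efl1. Sbds averaged 149 ± 18.4 CPM in the knockout and 152 ± 7.95 CPM in wild type. Efl1 was scarce, at 5.81 ± 1.02 CPM in the knockout and 6.45 ± 1.75 CPM in wild type, and its interval was wide (-0.63 to 0.34). Dnajc21, relative of the yeast J protein Jjj1 that works with Rei1, averaged 235 ± 12.8 CPM in the knockout and 245 ± 22.3 CPM in wild type. Rsl24d1, the placeholder on the precursor, averaged 735 ± 55.7 and 770 ± 95.5 CPM in knockout and wild-type libraries, and Rpl24, which replaces it, 8.59 ± 2.06 and 9.48 ± 1.36 CPM. The members with the smallest p beside Zfp622 were Heatr3, an import factor for ribosomal proteins, at 138 ± 13.2 CPM in the knockout and 118 ± 5.6 CPM in wild type, and Nxf1, the mRNA export receptor, at 299 ± 34.2 and 256 ± 28.8 CPM. Both had overlapping libraries and edgeR adjusted p of 0.69 and 0.723. In 3 tested genes reported as partners of the protein, Melk, Mybl2 and Map3k5, the log2 change was 0.06, 0.06 and 0.07, with 0 called and 0 at an unadjusted p under 0.05 by edgeR.

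Cytosolic ribosomal protein genes were measured most tightly. All 87 tested members had an interval within 2-fold and 86 within 1.5-fold; edgeR and DESeq2 called 0, and 4 were higher and 0 were lower by unadjusted p under 0.05 (4.6%, beside 6.43% of all genes). The median log2 change was 0.02. Rpl7a had 197, 176, 178 and 167 CPM in Zfp622 knockout libraries, against 150, 147, 140 and 155 CPM in wild-type libraries. These groups did not overlap (log2 change 0.28, SE 0.08), but edgeR's adjusted p was 0.563. Rps4x averaged 409 ± 37.3 CPM in the knockout and 359 ± 20.6 CPM in wild type, and Rps2 362 ± 51.5 and 317 ± 19.6 CPM; their libraries overlapped. Reads that map to several places were not counted, so that reads shared with processed copies of these genes are missing from the values.

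Genes for making ribosomes upstream of export showed members on both sides and 0 calls by edgeR and DESeq2. In nucleolar assembly of the large subunit, 1 of 60 was higher and 4 were lower at an unadjusted p under 0.05 (median -0.01). Brix1 averaged 672 ± 43.7 CPM in the Zfp622 knockout and 778 ± 74.2 CPM in wild type. Mak16 averaged 153 ± 10.1 and 178 ± 9.6 CPM and Rbm34 33.6 ± 2.21 and 42.1 ± 6.97 CPM in knockout and wild-type libraries, both without overlap. In assembly of the small subunit (median 0.01), 4 of 64 were higher and 4 lower, beside 3.37% and 3.06% of all genes. Dimt1, the dimethylase of 18S ribosomal RNA, averaged 214 ± 10.5 CPM in the knockout and 187 ± 5.03 CPM in wild type, the kinase Riok2 157 ± 3.8 and 182 ± 15.9 CPM, and Tsr3 57.4 ± 12.4 and 45.3 ± 3.32 CPM.

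Among RNA polymerase I genes 1 of 30 was higher and 1 were lower by unadjusted p under 0.05 (median -0.01; 0 called by edgeR and DESeq2). Taf1d, a subunit of the promoter factor SL1 and itself a host of small nucleolar RNAs, averaged 471 ± 73.1 CPM in the Zfp622 knockout and 560 ± 58.1 CPM in wild type. Host genes of small nucleolar RNAs had a median of -0.09, with 1 of 19 higher and 4 lower (0 called by edgeR and DESeq2). Over all genes 3.37% were higher and 3.06% lower, and the larger share of lower host genes was not tested. Zfas1 averaged 39.2 ± 4.92 CPM in the knockout and 53.4 ± 7.26 CPM in wild type without overlap (edgeR adjusted p = 0.619), and Snhg12 18.9 ± 3.22 and 25.5 ± 3.93 CPM. Dancr went the other way, at 115 ± 18.6 CPM in the knockout and 88.7 ± 9.85 CPM in wild type. Of 48 translation factors, 2 were higher and 1 lower (median 0.01). Eif3f, a subunit of initiation factor eIF3, had 64.6, 71.4, 74.9 and 75.2 CPM in Zfp622 knockout libraries, against 59.7, 53.5, 50.6 and 53.1 CPM in wild-type libraries. Its groups did not overlap, its log2 change was 0.40 (SE 0.09, edgeR adjusted p = 0.419), and DESeq2 called it (adjusted p = 0.0224).

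**Figure D3:**
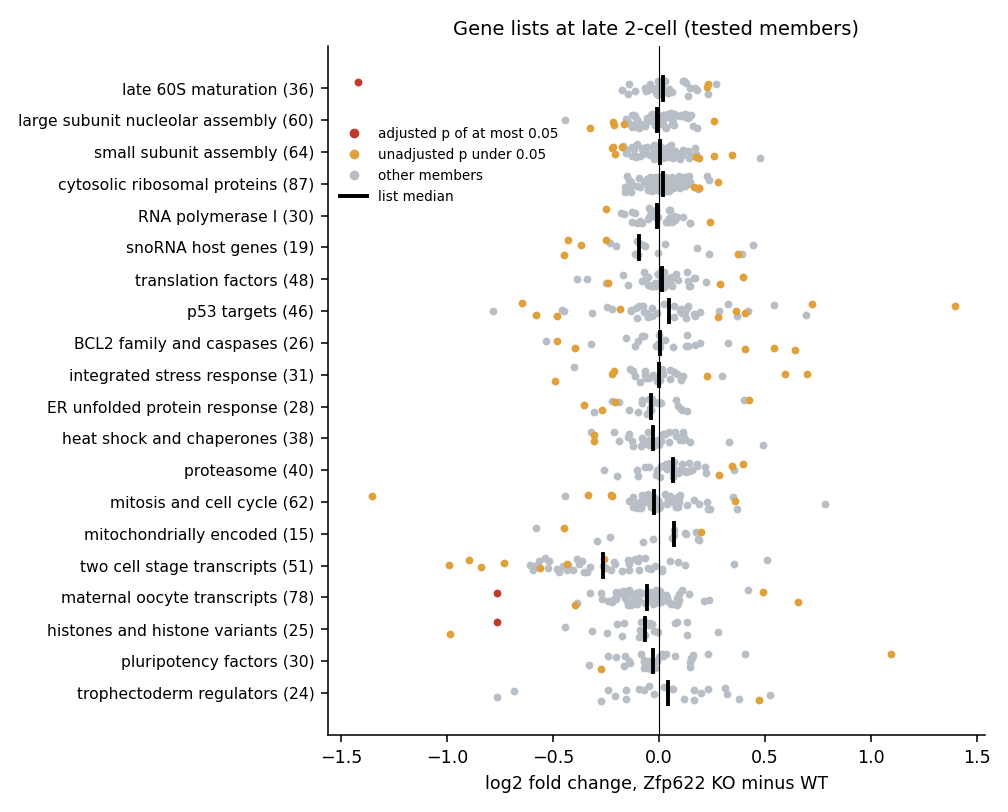
Log2 fold change (Zfp622 knockout minus wild type) of the tested members of 20 gene lists, with the number tested in brackets; black bars are list medians and colours give the edgeR result. Only Zfp622 and H1foo, which stands in 2 lists, are called, and the 2-cell transcripts are the list whose median is farthest from 0 (-0.26).

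Further genes separated the groups without passing edgeR's threshold. Only genes whose libraries did not overlap and whose higher group averaged at least 5 CPM were considered here. Predicted genes, Rik clones and pseudogenes were left out. Of the rest, the higher ones with the smallest p after Zfp948 were Tfcp2l1, Ric8b, Hnrnph2, Bnip3, Ghitm, Ccng1, Eif3f, Chic1 and Tes. DESeq2 called all of them. Tfcp2l1, a transcription factor of naive pluripotency, had 11.7, 10.5, 9.54 and 13.0 CPM in Zfp622 knockout libraries, against 4.73, 4.92, 4.39 and 6.83 CPM in wild-type libraries. Its groups stood about 1 apart on the log2 scale (log2 change 1.10, SE 0.20, edgeR adjusted p = 0.116; 0.000397 with all 24 libraries). Ric8b, a chaperone of G protein alpha subunits, had 6.57, 3.02, 6.3 and 4.59 CPM in the knockout, against 1.40, 2.41, 1.74 and 1.63 CPM in wild type. Knockout library 2 lay nearest to wild type (log2 change 1.52, SE 0.32, edgeR adjusted p = 0.317; 0.0474 without that library).

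The rest of the higher genes were more abundant, with smaller differences. Bnip3, a mitophagy receptor, averaged 506 ± 35.5 CPM in the Zfp622 knockout and 406 ± 22.2 CPM in wild type. Ghitm, of the inner mitochondrial membrane, averaged 321 ± 12.6 and 260 ± 10.1 CPM. The X-linked splicing factor gene Hnrnph2 averaged 131 ± 15.5 CPM in the knockout and 96.3 ± 9.28 CPM in wild type, and X-linked Chic1 49.5 ± 4.8 and 35.9 ± 3.83 CPM. Tes, the gene of the focal adhesion protein testin, averaged 25.1 ± 2.33 CPM in the knockout and 16.9 ± 1.89 CPM in wild type. Against the same wild-type libraries, 6 of the 9 higher genes were also called in the Ttf1 knockout, beside 258 of all 16770 genes (1.54%). The log2 changes there were 0.99 for Tfcp2l1, 1.65 for Ric8b, 0.63 for Hnrnph2, 0.34 for Bnip3, 0.50 for Ghitm and 0.57 for Eif3f (edgeR adjusted p = 0.0214, 0.0152, 0.00348, 0.0241, 0.00186 and 0.00551). Ccng1, Chic1 and Tes were not called there, at 0.39, 0.32 and 0.05 (edgeR adjusted p = 0.263, 0.147 and 0.898). For Tes the difference between the knockouts did not pass (edgeR adjusted p = 0.244). The 9 genes were chosen for Zfp622 knockout levels above these same wild-type libraries, so their calls in the Ttf1 knockout are not independent of that choice.

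Chosen by the same rule, the lower genes with the smallest p after Zfp622 and H1foo included Kntc1, Lonp2, Faiml, Uty, Secisbp2l, Klf10 and Nup50. Kntc1, of the kinetochore RZZ complex, averaged 32.7 ± 2.64 CPM in the knockout and 45.7 ± 1.76 CPM in wild type. Lonp2, the peroxisomal Lon protease, averaged 137 ± 28.5 CPM in the knockout and 202 ± 22.8 CPM in wild type. Klf10, a zinc finger factor induced by TGF-beta, averaged 14.8 ± 5.77 and 26.3 ± 3.97 CPM, the nucleoporin Nup50 135 ± 8.99 and 167 ± 10.8 CPM, and Secisbp2l 77.8 ± 7.75 and 101 ± 8.96 CPM in knockout and wild-type libraries. Faiml averaged 8.94 ± 1.33 CPM in the knockout and 16.2 ± 2.45 CPM in wild type. Of these 7, DESeq2 called Kntc1, Lonp2, Faiml and Uty.

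Genes that p53 activates lay on both sides of wild type. Of 46 tested, 5 were higher and 4 were lower by unadjusted p under 0.05, edgeR called 0, and the median was 0.05. Both counts are larger shares than the 3.37% higher and 3.06% lower of all genes, and the difference was not tested. Cdkn1a, the inhibitor of cyclin-dependent kinases, had 98.3, 52.3, 94.4 and 72.8 CPM in Zfp622 knockout libraries, against 74, 84.2, 80 and 57.5 CPM in wild-type libraries. The groups were intermixed (95% interval of the log2 change -0.40 to 0.61). Mdm2, the ligase that degrades p53, averaged 145 ± 11.4 CPM in the knockout and 150 ± 9.48 CPM in wild type (95% interval -0.22 to 0.12). Trp53 itself averaged 71.1 ± 9.76 and 58.5 ± 11.5 CPM in knockout and wild-type libraries, with overlap.

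Ccng1 and Eda2r stood apart within the p53 list. Ccng1, cyclin G1, had 34.9, 47.2, 27.2 and 37.5 CPM in Zfp622 knockout libraries, against 22.8, 24.2, 17.9 and 24 CPM in wild-type libraries (log2 change 0.72, SE 0.17, edgeR adjusted p = 0.419; 0.0331 by DESeq2, its only call in the list). Eda2r, a receptor of the TNF family on the X chromosome, had 2.81, 2.94, 2.99 and 2.61 CPM in the knockout, against 1.66, 0.772, 1.37 and 0.488 CPM in wild type (log2 change 1.40, SE 0.37, edgeR adjusted p = 0.513). Neither gene's groups overlapped. Others lay on the opposite side: Plk2 averaged 11.8 ± 1.19 CPM in the knockout and 18.5 ± 5.57 CPM in wild type, and Pmaip1, which encodes the BH3-only protein Noxa, 10.6 ± 2.28 and 14.9 ± 2.19 CPM. In the list of BCL2 family members and caspases 3 of 26 were higher and 2 lower, beside 3.37% and 3.06% of all genes. Its median was 0.00, and edgeR and DESeq2 called 0 of its members. There the anti-apoptotic Bcl2l10 of the oocyte averaged 229 ± 44.5 CPM in the knockout and 301 ± 44.3 CPM in wild type, and Bcl2l2 4.79 ± 0.92 and 3.06 ± 0.62 CPM.

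Stress lists gave 0 calls by edgeR and DESeq2. In the integrated stress response (median 0.00) 3 of 31 were higher and 3 were lower by unadjusted p under 0.05. Both are larger shares than the 3.37% higher and 3.06% lower of all genes, and the difference was not tested. The amino acid synthesis genes Pycr1 and Phgdh averaged 5.98 ± 0.69 and 36.8 ± 11.5 CPM in the Zfp622 knockout, and 3.67 ± 0.72 and 24.3 ± 1.29 CPM in wild type. Ddit3, the transcription factor CHOP, averaged 13.6 ± 3.12 CPM in the knockout and 19.1 ± 1.6 CPM in wild type. Among genes that respond to unfolded protein in the endoplasmic reticulum, 1 of 28 was higher and 3 lower (median -0.04). Its chaperone Hsp90b1 averaged 61.7 ± 4.03 CPM in the knockout and 74.3 ± 3.9 CPM in wild type without overlap, and Sel1l and Manf were on the same side with overlap. Among 38 heat shock and chaperone genes 0 were higher and 2 lower, the mitochondrial chaperones Dnaja3 (52 ± 2.17 CPM in the knockout, 64.4 ± 4.76 CPM in wild type) and Hspe1 (32.5 ± 2.6 and 40.2 ± 5.5 CPM).

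Proteasome genes gave 0 calls by edgeR and DESeq2. Of 40 tested, 32 had a log2 change above 0 and the median was 0.07, beside 49.6% above 0 and a median of -0.0019 over all tested genes. By unadjusted p under 0.05, 3 were higher and 0 were lower, beside 3.37% and 3.06% of all genes, and the difference from other genes was not tested. Psma5, a subunit of the core particle, had 111, 105.1, 127 and 126 CPM in Zfp622 knockout libraries, against 87.4, 102, 88.4 and 78.3 CPM in wild-type libraries. Psmd9, an assembly chaperone, averaged 47.6 ± 2.95 CPM in the knockout and 37.5 ± 2.95 CPM in wild type. Both separated the groups (edgeR adjusted p = 0.601 and 0.615), whereas Psmb5 did not (173 ± 27.1 and 142 ± 7.43 CPM).

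Transcripts of the 2-cell stage had log2 changes below 0 in most members and varied among the knockout pools. Of 51 tested, 44 had a log2 change below 0 (50.4% of all genes did), the median was -0.26, and 7 were lower and 0 higher at an unadjusted p under 0.05 (13.7%, beside 3.06% of all genes lower and 3.37% higher). EdgeR and DESeq2 called 0 of them. In the Ttf1 knockout, against the same wild-type libraries, most members were also below 0. Log2 changes there were -0.55 for Zfp352, -0.54 for Tdpoz3 and -0.55 for Obox2 (edgeR adjusted p = 0.297, 0.53 and 0.0245). A minority lay above 0 there, among them Zfp951 at 0.72 (edgeR adjusted p = 0.0699). Zfp352, a zinc finger gene of this burst, had 208, 353, 152 and 229 CPM in Zfp622 knockout libraries, against 353, 255, 335 and 329 CPM in wild-type libraries. Knockout library 2 was as high as the highest wild-type library, while the other knockout libraries lay below all 4. Tdpoz3 had 8.20, 28.7, 9.05 and 9.26 CPM in the knockout, against 30.1, 19.4, 23.5 and 36.2 CPM in wild type, again with only library 2 of the knockout in the wild-type range (log2 change -0.99, SE 0.38, edgeR adjusted p = 0.716).

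Zscan4d, whose family marks this stage, averaged 75 ± 18.3 CPM in the Zfp622 knockout and 97.9 ± 26 CPM in wild type, Zscan4c 21.2 ± 8.16 and 30.5 ± 5.47 CPM, and Tmem92 52.2 ± 13.2 and 77 ± 17.4 CPM. Members of the Zscan4, Tdpoz and Obox families are near-identical copies, so that their counts, made without reads that map to several places, are uncertain. Over the 51 genes the median log2 difference from the wild-type mean was -0.48, 0.13, -0.62 and -0.35 in knockout libraries 1 to 4, against -0.04, -0.35, 0.08 and 0.24 in wild-type libraries 1 to 4. The groups overlapped through knockout library 2 and wild-type library 2. The summed cumulus and granulosa markers ran in the opposite order within each group. They stood at 230, 147, 268 and 198 CPM in knockout libraries 1 to 4, against 194, 200.5, 174 and 141 CPM in wild-type libraries 1 to 4. Most of that sum was Gja1 and Amhr2, and 23 of the 33 markers were under 1 CPM in every library. The median log2 difference of the 8 tested markers did not follow the order of the sum. It was 0.28, 0.07, -0.37 and 0.13 in knockout libraries 1 to 4, and 0.18, -0.01, 0.15 and -0.36 in wild-type libraries 1 to 4. The part of Gja1, Amhr2 or other cells in the 2-cell values was not tested. On the first principal component of the 12 L2C libraries (18.95% of variance) the knockout libraries stood at 13.7, -36.1, 30.4 and -2.32, against -6.34, -1.93, -21.7 and -36.3 for the wild-type libraries. Knockout libraries 2 and 4 thus lay within the wild-type range. Without knockout library 2, 7 genes were called, 2 of them among the 3 of the full fit: Zfp622, Zfp948, Ric8b, Tdpoz3 (log2 change -1.63, edgeR adjusted p = 0.00099), Gm6871, Vmn2r-ps61 and 2010110K18Rik. The median log2 fold change of the 51 transcripts, -0.26 in the full fit, was -0.50 without knockout library 2 and -0.17 without knockout library 3.

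**Figure D4:**
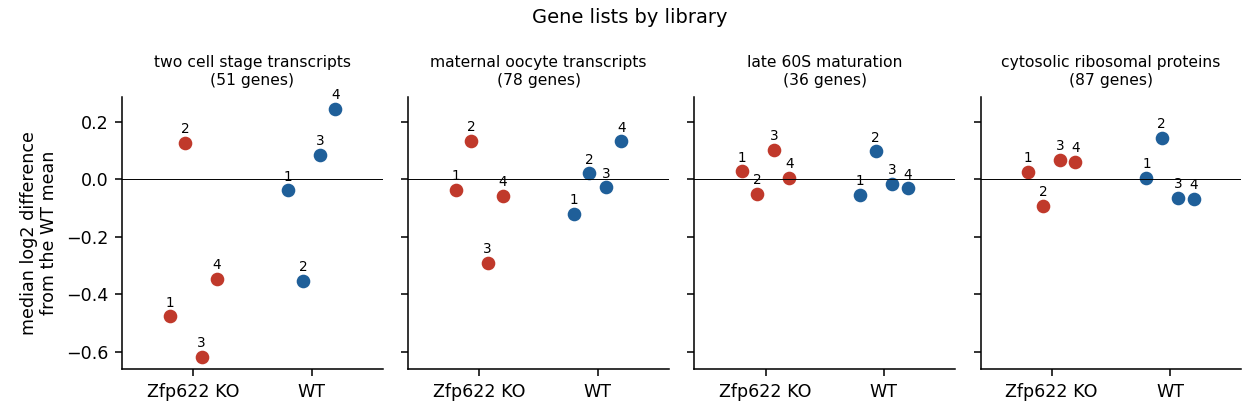
Median log2 difference from the wild-type mean over the tested members of 4 gene lists, one point per library, numbered, with Zfp622 knockout left and wild type right. For 2-cell transcripts knockout libraries 1, 3 and 4 lie at -0.48, -0.62 and -0.35 and library 2 at 0.13; late 60S and ribosomal protein genes stay close to 0 in both groups.

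Oocyte transcripts included 1 called gene, H1foo. Of 78 tested, 54 had a log2 change below 0 (50.4% of all genes did), with a median of -0.05. By unadjusted p under 0.05, 2 were higher and 2 were lower, beside 3.37% and 3.06% of all genes. Zp3, of the zona pellucida, averaged 108.4 ± 12.7 CPM in the Zfp622 knockout and 108.5 ± 11.9 CPM in wild type. Dppa3, a maternal factor that guards DNA methylation in the zygote, averaged 4331 ± 305 CPM in the knockout and 4872 ± 627 CPM in wild type (95% interval of the log2 change -0.34 to 0.01). The higher genes by unadjusted p were Nlrp4c, at 16.6 ± 4.13 and 11.8 ± 1.93 CPM in knockout and wild-type libraries, and Zfp36l2, whose protein binds AU-rich elements of mRNA, at 9.73 ± 1.54 CPM in the knockout and 6.17 ± 2.11 CPM in wild type without overlap (log2 change 0.66, edgeR adjusted p = 0.722). Bcl2l10, the lower gene beside H1foo, had a log2 change of -0.40 (edgeR adjusted p = 0.627; 0.0114 without a filter). Among 25 histone genes, 20 had a log2 change below 0 (median -0.06), with H1foo the 1 called. Hist1h1c, a somatic linker histone gene, was scarce, at 1.69 ± 0.34 CPM in the knockout and 3.34 ± 1.62 CPM in wild type, with overlap.

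Markers of later lineages and of division gave single members rather than shifts. In pluripotency factors 1 of 30 was higher, Tfcp2l1, and 1 lower, Tet1 (94.2 ± 5.3 CPM in the Zfp622 knockout, 114 ± 13.9 CPM in wild type); edgeR called 0. In trophectoderm regulators 1 of 24 was higher, the sodium pump subunit gene Atp1b1 (21.5 ± 5.97 and 15.5 ± 3.88 CPM), and edgeR and DESeq2 called 0. Of 62 genes of mitosis and the cell cycle 1 was higher and 4 lower, beside 3.37% and 3.06% of all genes. The median of the 62 was -0.02, and edgeR and DESeq2 called 0. Aurkb, the kinase of the chromosomal passenger complex, averaged 103.1 ± 4.03 CPM in the knockout and 80.5 ± 15.9 CPM in wild type, and Ndc80, of the outer kinetochore, 106.1 ± 6.55 and 124 ± 8.48 CPM. Mycn averaged 1.58 ± 0.61 CPM in the knockout and 4.06 ± 3.57 CPM in wild type, where library 3 alone reached 9.23 CPM. Among 15 mitochondrially encoded genes 1 was higher and 1 lower (0 called by edgeR and DESeq2). Of these, mt-Nd1 averaged 9765 ± 1010 CPM in the knockout and 8512 ± 611 CPM in wild type, and mt-Co2 113 ± 15.5 and 154 ± 45.1 CPM. All genes of the mitochondrial chromosome together held 5.41% to 6.6% of counts in knockout libraries and 5.50% to 6.03% in wild-type libraries.

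Sex-linked transcripts differed between the pools. The summed level of 8 Y-linked genes was 86.3, 96.3, 91.7 and 106.81 CPM in Zfp622 knockout libraries, against 106.85, 143, 138 and 114 CPM in wild-type libraries. The groups met without overlapping (exact permutation test, two-sided, p = 0.0286, the smallest that 4 against 4 allows; adjusted p = 0.171 over 8 library measures). Uty had 20.5, 20.6, 25.4 and 19.2 CPM in the knockout, against 32.9, 32.5, 33.6 and 33.0 CPM in wild type (log2 change -0.62, SE 0.15, edgeR adjusted p = 0.432). Of the 12 Y-linked genes tested, 11 had a log2 change below 0 (50.4% of all genes did). Their median was -0.32, beside -0.49 in the Ttf1 knockout against the same wild-type libraries. Uty was called in the Ttf1 knockout (log2 change -0.70, edgeR adjusted p = 0.0244). Xist, the RNA that coats the inactive X chromosome, had 9.38, 9.40, 8.73 and 4.43 CPM in the knockout, against 3.33, 4.73, 5.85 and 1.79 CPM in wild type, with library 4 the lowest of its group in both (exact permutation test, two-sided, p = 0.0857, adjusted p = 0.171).

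At an unadjusted p under 0.05, 56 of 616 genes on the X chromosome were higher (9.09%) and 10 lower (1.62%), beside 3.37% and 3.06% of all genes, and the median was 0.08. Hnrnph2, Chic1, Eda2r, Rps4x and Eif1ax, named above or among the smallest p of their lists, are X-linked. In the Ttf1 knockout, against the same wild-type libraries, the median of the X chromosome was 0.13. Xist was called there (log2 change 1.87, edgeR adjusted p = 0.0311), so both knockouts lay on the same side of the shared wild-type group. The number of male and female embryos per pool is not given in the sources used here, and its part in these values was not tested. A fit over autosomal genes alone, added after the results were seen, called the same 3 genes as the full fit. All 3 are autosomal and the same pools were compared, so that fit is no test of the sex of the pools.

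Among autosomes the medians ran from -0.04 on chromosome 15, which carries Zfp622, to 0.02 on chromosome 17. This look at chromosomes followed sight of the values, and no test was made. The 547 tested genes distal to Zfp622 had a median difference from the wild-type mean of -0.07, -0.10, -0.01 and 0.03 in Zfp622 knockout libraries 1 to 4, against 0.02, 0.01, -0.004 and -0.01 in wild-type libraries, so the groups overlapped. Within 500 kb, 1 of 9 annotated genes near Zfp622 was tested, Myo10, at 27.8 CPM in the knockout and 27.1 CPM in wild type (edgeR adjusted p = 0.982). Of the tested neighbours of Zfp948 (16) and H1foo (19), edgeR called 0 and 1 each had an unadjusted p under 0.05, beside 6.43% of all genes. These were Zfp53 near Zfp948, at 22.5 CPM in the knockout and 16.8 CPM in wild type, and Cand2 near H1foo, at 7.73 and 4.14 CPM.

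**Figure D5:**
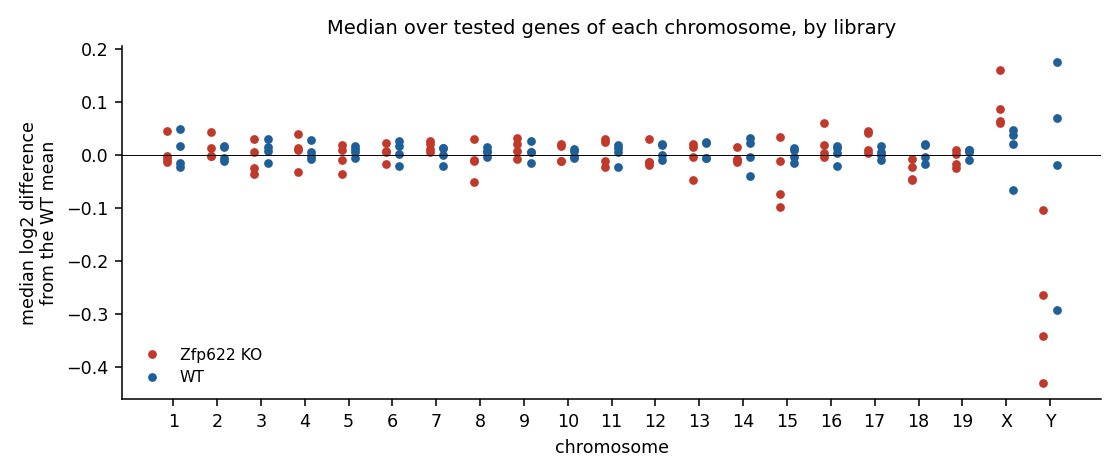
Median log2 difference from the wild-type mean over the tested genes of each chromosome, one point per library, Zfp622 knockout left and wild type right. The autosomes lie close to 0, the X chromosome lies at 0.06 to 0.16 in the knockout libraries and at -0.07 to 0.05 in the wild-type libraries, 3 of them above 0, and the median of the 12 Y-linked genes lies below 0 in all 4 and in wild-type libraries 1 and 4.

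Other cell types left little RNA. Of 33 cumulus and granulosa markers, 23 were under 1 CPM in every library and 2 at 0; the summed level was 147 to 268 CPM in Zfp622 knockout libraries and 141 to 200 CPM in wild-type libraries, most of it Gja1 and Amhr2. Of 22 sperm and spermatid markers 16 were under 1 CPM and 4 at 0, with sums of 85.4 to 102 CPM in the knockout and 88.4 to 101 CPM in wild type. Of 19 blood cell markers 13 were under 1 CPM and 7 at 0, with sums of 14.7 to 21.4 CPM in the knockout and 16 to 25.1 CPM in wild type. No sum passed (exact permutation tests, two-sided, p = 0.257, 0.314 and 0.171; adjusted p = 0.314, 0.314 and 0.274), and neither did total counts, higher in the knockout (exact permutation test, p = 0.0857, adjusted p = 0.171).

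At the morula stage the same comparison called far more genes. In the fit of all 24 libraries 4177 of 18864 genes passed there (22.1%), and the effect of the knockout differed between stages for 2010 genes (10.7%). For Zfp622 the difference between stages did not pass (morula minus L2C -0.37, edgeR adjusted p = 0.524), nor did it for Zfp948 (-0.34, edgeR adjusted p = 0.129). For H1foo the difference passed (1.34, edgeR adjusted p = 0.0273), while its log2 change at morula, 0.59, did not (edgeR adjusted p = 0.261). H1foo was described here because it was called at L2C, so that this difference uses values that chose it. Cdkn1a and Mdm2, not called at L2C, had log2 changes of 2.52 and 1.46 at morula, and the differences between stages were 2.42 and 1.5 (edgeR adjusted p = 0.000136 and 1.03e-05).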

How the data were processed

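Counts of read pairs per gene were deposited by the authors for 24 libraries; the 12 L2C libraries were fitted together so that the groups share one estimate of the spread, and all 24 for the stage difference. Per the submitters' processing notes and the file headers, paired 150-base reads went through HISAT2 2.2.1 on GRCm38 (also named mm10) and counted with featureCounts 2.0.1 over Ensembl release 99 exons, without a strand option and without reads that map to several places. The deposited counts were used as they are. Groups come from titles, since most genotype labels of these knockout libraries name other genes and the strain labels count upward from library to library; the strain B6D2F1 is that of the design text.

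The filter was filterByExpr of edgeR 4.0.16 (minimum count 10); genes that passed were scaled by TMM and tested with robust quasi-likelihood fits in R 4.3.3. Standard errors come from the fitted information matrix and 95% intervals from the t quantile of the total degrees of freedom. The procedure was tested on simulated data. Library measures were compared by exact permutation in scipy 1.17.1. Alternatives were DESeq2 1.42.0, its size factors, total counts only, other filters, no robust fit, a replicate block, 8 or 24 libraries, thinned counts, a fold threshold and each library left out.

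The comparison, gene lists and rules were chosen with earlier results of these data known. Named genes are Zfp622, called genes, the 10 higher and 10 lower with the smallest p among those without overlap and at least 5 CPM in the higher group, up to 3 per list at p under 0.05, and a preset set of late 60S, p53, 2-cell and oocyte genes. Predicted genes, Rik clones and pseudogenes were left out, some genes are not reported here, and those listed as called in other fits were named after their values were seen. Per the labels, every library is its own pool of 10 embryos; p-values measure the spread between pools. Replicate numbers did not pair the libraries (correlations of same-numbered libraries -0.198 to 0.0806 after group means were removed). Promoter windows are from RefSeq (GRCm38.p6).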

Additional observations from a re-analysis of the deposited data

Results flagged for a closer look

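Of 186 groups of 4 libraries tested for a library far from the other 3, by Dixon's test at 95%, 8 had one, where chance flags about 1 in 20. All 8 were groups of Zfp622 knockout libraries and not of wild-type libraries. In Zfp622 knockout library 2, Ghitm was at 302 CPM (the other 3 at 327), Tdpoz3 at 28.7 CPM (8.20 to 9.26) and the summed sperm markers at 102 CPM. In knockout library 1 Tsr3 was at 75.9 CPM (50.0 to 52.9 in the others), in library 3 Dancr at 87.1 CPM (124 to 126), and in library 4 Dnajc21 at 254 CPM (227 to 231) and Xist at 4.43 CPM (8.73 to 9.40). Xist was counted both as a gene and as a library measure.

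The effect of the Zfp622 knockout differed between stages for 24 of 85 named genes by the interaction in edgeR. Differences are morula minus L2C on the log2 scale. The p53 targets had positive differences: 3.61 for Plk2, 2.91 for Pmaip1, 2.42 for Cdkn1a, 1.5 for Mdm2 and 1.06 for Ccng1 (edgeR adjusted p = 3.62e-06, 4.38e-07, 0.000136, 1.03e-05 and 0.0169). At L2C none of these 5 passed in the edgeR fit of the 12 libraries, Ccng1 passed without a filter (edgeR adjusted p = 0.00157) and by DESeq2 (adjusted p = 0.0331), and Plk2 and Pmaip1 were below wild type there (-0.64 and -0.48).

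Of genes lower in the knockout at L2C, the difference was 1.34 for H1foo, 1.13 for Lonp2, 1.72 for Faiml, 0.46 for Brix1, 0.44 for Eif4a2, 2.55 for Mycn, 1.75 for Ldhc and 0.69 for Dppa3. Of genes higher at L2C it was -1.72 for Tfcp2l1, -0.83 for Hnrnph2, -0.37 for Eif3f, -0.92 for Tes, -0.74 for Heatr3, -1.23 for Phgdh, -0.62 for Psma5, -0.53 for Aurkb, -1.93 for Nlrp4c and -1.32 for Atp1b1. Dancr, higher at L2C, had a positive difference of 0.73. The named genes were chosen partly for their values at L2C.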

How the results depend on the processing

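Zfp622 and Zfp948 were called in each of 20 fits and H1foo in 10. The count of 3 genes (1 higher, 2 lower) was 21 with DESeq2 (13 and 8), 88 without a filter (45 and 43; 85 of the 88 had been tested with the filter, and 12.5% were on X, against 3.67% of tested genes) and 6 with all 24 libraries (4 higher). With no robust fit, the replicate block or the 8 libraries alone 1 gene was lower, as H1foo missed, and under a 2-fold threshold 1 gene was left, Zfp622. Leaving out 1 library gave 2 to 7 genes, 1 to 3 higher and 1 to 4 lower. Members of any list past the threshold, 2 in the full fit, were 6 with DESeq2, 10 without a filter, 1 with no robust fit, the replicate block or the 8 libraries, and 1 to 2 with a library left out. The knockouts differed in 20 genes with all 24 libraries instead of 6. The cause of these shifts was not tested. With the replicate block the log2 fold change of Zfp622 was -1.45 (edgeR adjusted p = 0.0043), and the stage difference held for 1829 genes.

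Zfp622's log2 fold change ran from -1.64 to -1.28 over all alternatives, with adjusted p up to 0.0484 (8 libraries). Values near 0 changed sign: Eif6 was 0.0071 with total counts only, and Zp3 0.00074 with DESeq2, 0.000587 with its size factors, 0.011 with total counts, 0.0014 with at least 10 counts in 4 libraries, 0.00039 with the block, 0.0013 with 8 and 0.0016 with 24 libraries. With a library left out, ranges crossed 0 for Lsg1 (-0.0096 to 0.077), Efl1 (-0.24 to 0.051), Eif6 (-0.037 to 0.043), Sbds (-0.090 to 0.042), Dnajc21 (-0.098 to 0.0029), Rpl24 (-0.25 to 0.014), Rsl24d1 (-0.12 to 0.00022), Cdkn1a (-0.011 to 0.26) and Zp3 (-0.065 to 0.068). Genes within a 2-fold interval numbered 11796 to 12046 with a library left out, against 12506. Depth limits the scarce genes most: 2.23% of genes under 1 CPM had an interval within 2-fold.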
